A study of Mus musculus with 15 samples.

Results

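The Igfbp7 and Aqp1 loci of the mouse genome were examined for chromatin accessibility in colon cancer organoid lines by ATAC-seq, an assay in which a transposase cuts and tags open DNA. The members were all rows of the deposited count table whose interval overlaps mm9 chr5:77650000-78000000 (Igfbp7) or chr6:55200000-55380000 (Aqp1). This gave 16 of 43020 regions, 11 at Igfbp7 and 5 at Aqp1, and all 16 passed the filter on low counts. The loci were selected on measured values, namely the low signal of 1 region in each (peak_74007 and peak_82217, called the lead regions here) in metastasis lines of rounds 2 and 3. Differences between metastasis and primary lines of those rounds are therefore a description and carry no test.

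The lines came from serial transplantation into the colon of immunocompetent mice (recipients labelled C57Bl6), and the genotype of all lines is labelled AKP. The number in a group's name is taken as the transplantation round. Liver metastases gave Met1, Met2 and Met3, primary tumours gave Primary2 and Primary3, and each group had 3 lines; a round 1 primary group was not analysed here. The sources used here do not say which line descended from which, so lines of a group may share ancestry and p-values measure the spread among these lines only.

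Igfbp7 encodes a secreted protein of the insulin-like growth factor binding protein family, which binds these growth factors weakly and is deposited in the extracellular matrix and vascular basement membrane. Its silencing by promoter methylation is known from human colorectal cancer. Aqp1 encodes a channel that lets water cross the plasma membrane, first described in red blood cells and kidney tubules. Accessible regions in and around a gene include promoters and enhancers, which transcription factors bind, and accessibility by itself is not a measure of expression. In these bulk libraries, fewer cells with an open region and a less open region per cell cannot be told apart.

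In RefSeq's gene order (assembly GRCm38.p6), the protein-coding genes before Igfbp7 are Rest, a repressor of neuronal genes, Noa1, a mitochondrial GTPase, and Polr2b, a subunit of RNA polymerase II. Adgrl3, an adhesion receptor, follows it. Aqp1 lies between Mindy4, a deubiquitinase, and Ghrhr, the receptor for growth hormone releasing hormone. The table is in mm9 and the gene positions are in another build, so no region was placed in a promoter, exon or intron, and a region of the Igfbp7 or Aqp1 locus can belong to a neighbouring gene.

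The promoters of both genes are shown because their base composition differs and because each locus held a region with low signal in the Met2 and Met3 lines. Whether either region belongs to the gene shown is not known here. They are from RefSeq, run from 250 bases before to 50 after the gene's start, and are written 5′ to 3′ on the gene's strand with CG dinucleotides, the sites of DNA methylation, in capitals. Their positions in GRCm38.p6 are chr5:77407996-77408295 on the minus strand (Igfbp7) and chr6:55336049-55336348 on the plus strand (Aqp1), and these cannot be set beside the mm9 positions of the regions.
Igfbp7: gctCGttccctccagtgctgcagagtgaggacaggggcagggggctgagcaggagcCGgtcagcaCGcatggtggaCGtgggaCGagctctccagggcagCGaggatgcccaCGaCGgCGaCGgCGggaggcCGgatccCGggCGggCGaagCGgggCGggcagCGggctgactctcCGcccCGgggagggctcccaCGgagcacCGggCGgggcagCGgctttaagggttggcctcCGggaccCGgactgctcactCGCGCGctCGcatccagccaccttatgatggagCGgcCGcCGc
Aqp1: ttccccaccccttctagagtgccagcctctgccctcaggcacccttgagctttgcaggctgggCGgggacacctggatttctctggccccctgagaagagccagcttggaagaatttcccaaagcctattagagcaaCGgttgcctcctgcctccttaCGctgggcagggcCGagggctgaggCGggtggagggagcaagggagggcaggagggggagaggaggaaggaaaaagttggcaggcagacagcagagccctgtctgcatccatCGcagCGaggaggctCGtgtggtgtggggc

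The Igfbp7 promoter held 33 CG dinucleotides and 73.3% G and C, and the Aqp1 promoter held 8 and 62.7%. The median of 32851 promoters of the same length was 7 CG dinucleotides and 52.7%, and 92.3% of them had as many CG dinucleotides as Igfbp7 or fewer, against 54.2% for Aqp1. On both strands, neither promoter held AGATAA (bound by factors of the GATA family and present in 11.2% of all promoters), TGANTCA (AP-1, 7.8%), ACAAAG (TCF/LEF and SOX, 18.7%) or CAAAGTCCA (HNF4, 0.5%). The TCF/LEF and HNF4 motifs share letters, so that matches to them can overlap. These results concern the letters of these windows and say nothing of factor binding.

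Total counts ran from 285633 (Primary3 replicate 2) to 5916109 (Primary3 replicate 3). The shallowest libraries were Primary3 replicate 2 and Met1 replicate 1 (790233 counts). In Met1 replicate 1 the tenth of regions with the most counts held 33.0% of its counts, against 39.5% to 43.8% in the other 14 libraries. Met1 replicate 1, Met2 replicate 1 and Primary3 replicate 2 had the lowest mean correlations with the other lines of their group across regions (0.721, 0.718 and 0.725), where the others had 0.768 to 0.882. Levels are given as CPM, the usual depth-scaled count, with the library's TMM-scaled total over the tested regions as the divisor.

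At the Igfbp7 locus, the signal of later metastasis lines was low mainly at peak_74007 (mm9 chr5:77813000-77814422, 1422 bp wide). The Primary2 lines stood at 41.1, 78.8 and 55.7 CPM, and the Primary3 lines at 67.8, 12.7 and 76.5. The Met1 lines held 24.9, 20.3 and 31.9 CPM, the Met2 lines 7.31, 3.59 and 4.19, and the Met3 lines 4.25, 1.91 and 1.94. Every line of Met2 and Met3 was thus below every Met1 and primary line. The low primary value, 12.7 CPM in Primary3 replicate 2, rested on 4 reads and had an exact 95% Poisson interval from 3.47 to 32.6 CPM, which covers counting error only. Later metastasis lines had 3.86 ± 1.98 CPM and primary lines of rounds 2 and 3 had 55.4 ± 25.2 (SD, n = 6 each), a ratio of means of 14.3. The log2 fold change in the fit was -4.00 ± 0.35 (SE) (-4.16 without Primary3 replicate 2).

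Ordered by mean, peak_74007 stood highest in Primary2 (58.5 ± 18.99 CPM), then in Primary3 (52.4 ± 34.6), Met1 (25.7 ± 5.85), Met2 (5.03 ± 1.99) and Met3 (2.70 ± 1.34; SD, n = 3 each). Neighbouring groups in this order overlapped between Primary2 and Primary3, between Primary3 and Met1 (through Primary3 replicate 2), and between Met2 and Met3. Met1 and Met2 did not overlap.

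At the Aqp1 locus the lead region was peak_82217 (mm9 chr6:55288980-55289601, 621 bp wide). The Primary2 lines stood at 44.0, 19.7 and 88.7 CPM and the Primary3 lines at 93.7, 82.8 and 65.2. The Met1 lines held 21.5, 6.03 and 2.98 CPM, the Met2 lines 5.31, 6.28 and 6.29, and the Met3 lines 1.21, 5.72 and 4.53. The later metastasis lines again lay below all primary lines, but Met1 replicate 1 exceeded the lowest primary line. Later metastasis lines had 4.89 ± 1.92 CPM and primary lines had 65.7 ± 29.0 (SD, n = 6 each), a ratio of means of 13.4 and a log2 fold change of -3.68 ± 0.42 (SE).

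Ordered by mean, peak_82217 stood highest in Primary3 (80.6 ± 14.4 CPM), then in Primary2 (50.8 ± 35.0), Met1 (10.2 ± 9.94), Met2 (5.96 ± 0.56) and Met3 (3.82 ± 2.34; SD, n = 3 each). All 4 pairs of neighbouring groups in this order overlapped, that of Primary2 and Met1 through Primary2 replicate 2 and Met1 replicate 1.

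**Figure D1:**
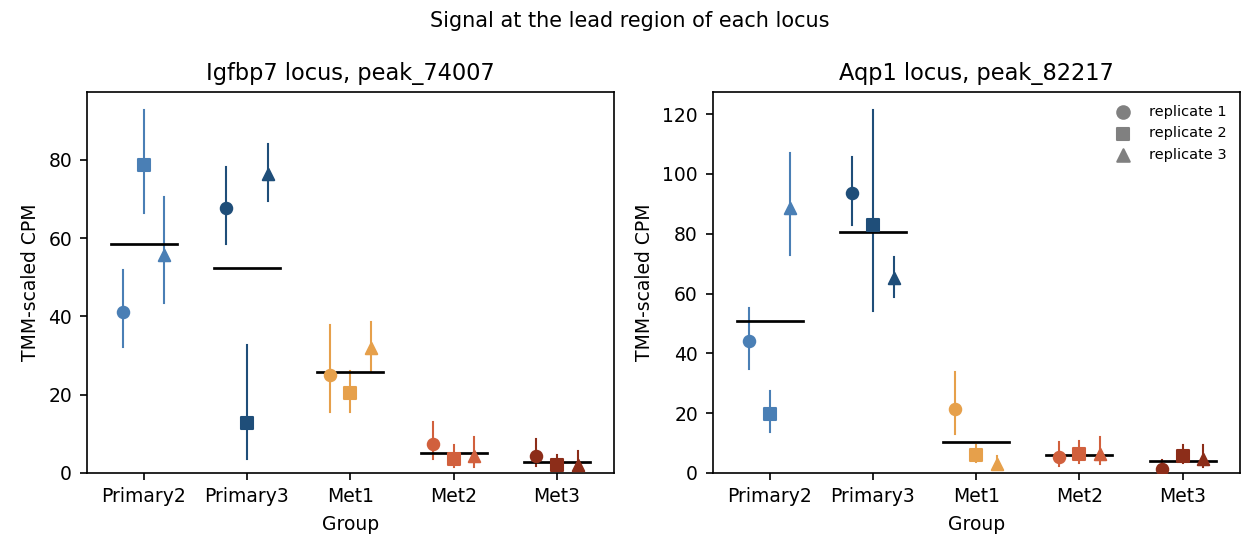
Signal at the lead region of each locus in TMM-scaled CPM (linear axis from 0), by group, with 1 point per line, vertical bars for the exact 95% Poisson interval of its count and a horizontal bar for the group mean. Met2 and Met3 lines lie between 1.21 and 7.31 CPM at both loci, while Met1 lines are intermediate at Igfbp7 and, except for replicate 1, near the later lines at Aqp1.

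The remaining 10 regions of the Igfbp7 locus differed less, and not in 1 direction. Nearest to it were peak_74001 to peak_74006, centred at -29.7 to -9.31 kb from peak_74007. Their log2 fold changes of metastasis minus primary in rounds 2 and 3 ran from -0.50 (peak_74001) to -2.24 (peak_74005), and 4 of these regions passed the threshold. Primary lines had 11.1 ± 5.37 CPM at peak_74005 and later metastasis lines had 2.46 ± 1.82, and the corresponding levels were 11.9 ± 3.99 and 4.30 ± 3.22 at peak_74006 (SD, n = 6 each). At peak_74002 they were 20.7 ± 4.16 and 10.0 ± 4.50, and at peak_74003 they were 17.2 ± 5.43 and 7.43 ± 3.23. The log2 fold change was -1.13 ± 0.47 (SE) at peak_74004 and -0.50 ± 0.46 at peak_74001, and neither passed the threshold.

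Farther from peak_74007, no region of the window passed the threshold in rounds 2 and 3 together. The log2 fold change was positive at peak_73991 and peak_73994. At peak_73994 it was 0.23 ± 0.21 (SE), beside a median of 0.26 over the regions of chromosome 5. The region with the highest mean level at this locus, peak_73994 (chr5:77694143-77695759, at -119 kb), held 31.5 ± 13.0 CPM in primary and 34.7 ± 5.85 CPM in later metastasis lines (SD, n = 6 each). Its lines ranged from 20.2 to 50.0 CPM, and primary and metastasis lines overlapped with the rounds pooled. By round, the Met2 lines (36.5, 29.6 and 44.7 CPM) all lay above the Primary2 lines (22.0, 20.8 and 20.2), whereas Met3 and Primary3 overlapped. How many of all regions had Met2 wholly above Primary2 was not counted. The log2 fold change was 0.81 ± 0.30 (SE) in round 2 and -0.35 ± 0.29 in round 3, and neither was called. At peak_73991, a weak region, the signal was 3.19 ± 2.16 CPM in primary and 8.02 ± 4.99 in later metastasis lines, and the log2 fold change of 1.10 ± 0.51 (SE) was not called. At peak_74012, on the side of higher coordinates, primary lines held 17.2 ± 7.09 CPM and later metastasis lines 11.7 ± 5.49. Over both rounds peak_74012 had a log2 fold change of -0.53 ± 0.30 (SE) and peak_74013 one of -0.74 ± 0.67, and neither was called. By round, peak_74012 had 0.36 ± 0.42 in round 2 and -1.41 ± 0.43 in round 3. In round 3 it was called lower, a call kept in 16 of 24 alternatives. The values of peak_74013 were 1.28 ± 0.79 in round 2 and -2.75 ± 1.08 in round 3, neither called. Both leaned on single libraries. Without Met2 replicate 1 the round 2 value was 0.16, and without Primary3 replicate 2 the round 3 value was -1.93.

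All 5 regions of the Aqp1 locus had less signal in later metastasis lines. At peak_82222 (chr6:55307139-55308313), 18.4 kb from the lead region, primary lines held 31.3, 29.5 and 67.8 CPM in round 2 and 55.9, 31.9 and 54.2 in round 3. The Met2 lines had 12.6, 7.17 and 6.99 CPM and the Met3 lines 9.72, 4.96 and 6.47, all below every primary line. At peak_82216 (chr6:55285970-55286574) the Primary2 lines held 9.27, 8.75 and 39.5 CPM and the Primary3 lines 47.6, 54.2 and 37.3. The Met2 lines had 3.98, 4.04 and 2.10 CPM there and the Met3 lines 3.64, 8.01 and 3.88, so that the low Primary2 lines were near Met3 replicate 2 without overlapping. The log2 fold changes were -2.54 ± 0.30 at peak_82222, -2.74 ± 0.47 at peak_82216, -2.73 ± 0.57 at peak_82220 and -1.68 ± 0.43 at peak_82215 (SE). Primary lines had 12.4 ± 4.98 CPM at peak_82220 and later metastasis lines had 1.80 ± 1.56, and at peak_82215 these levels were 13.4 ± 5.22 and 3.90 ± 1.98 (SD, n = 6 each).

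Counted over both loci, 10 of 16 regions were called lower and 0 higher in metastasis lines of rounds 2 and 3 (edgeR quasi-likelihood test), 5 of 11 at Igfbp7 and 5 of 5 at Aqp1. Of all regions tested, 8.98% were called lower. In round 2 alone 5 of the 16 were called lower (1 at Igfbp7, 4 at Aqp1), where 2.77% of all regions were, and in round 3 alone 9 were (5 and 4), where 4.52% of all were. In 6 regions (3 per locus) every metastasis line lay below every primary line of its round, against 4.96% of all regions. Nothing is read from these shares, since the loci were selected on this contrast. The median log2 fold change was -1.13 over the Igfbp7 regions and -2.73 over the Aqp1 regions, beside 0.04 over all regions, 0.26 over chromosome 5 and 0.23 over chromosome 6.

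**Figure D2:**
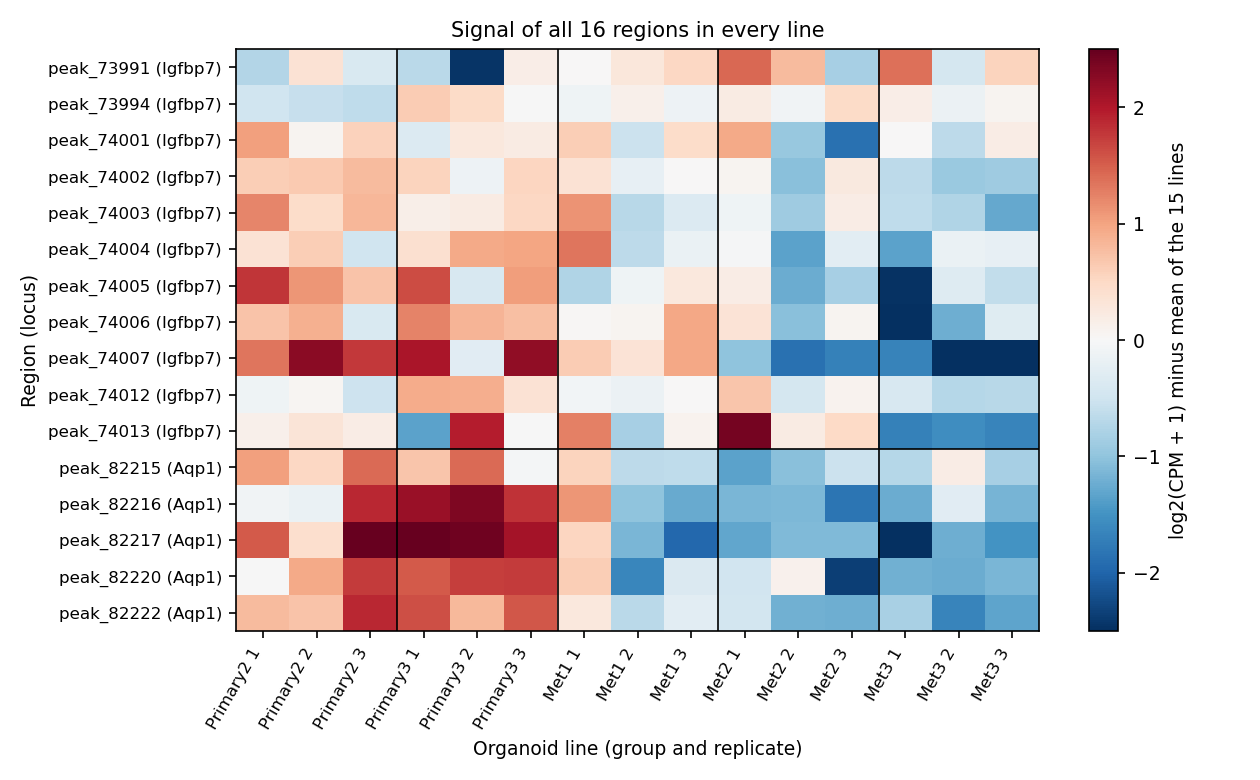
Signal of all 16 regions (vertical) in each of the 15 lines (horizontal), as log2(CPM + 1) minus the region's mean over the lines, with colours limited to 2.5 in either direction. Most Aqp1 values of metastasis lines are below the region's mean, with Met1 replicate 1 above it at all 5 regions, Met3 replicate 2 at peak_82215 and Met2 replicate 2 at peak_82220, whereas at Igfbp7 peak_74007 shows the strongest contrast, and peak_73994 shows little.

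Per length, the lead regions were the most accessible of their loci in primary lines, at 39.0 CPM per kb (peak_74007) and 105.8 CPM per kb (peak_82217). In later metastasis lines these levels were 2.72 and 7.88 CPM per kb, and peak_74007 was then the lowest of the 11 Igfbp7 regions by this measure. The other Igfbp7 regions had 7.02 to 32.9 CPM per kb in primary lines and the other Aqp1 regions 30.2 to 54.2. The authors' score for each region, in its name, was 67.3 for peak_74007 (percentile 78.4 of the table) and 58.2 for peak_82217 (percentile 75.1), and the other 14 members had scores from 5.93 to 33.5. Width did not set the members apart, at 337 to 1616 bp against a median of 746 bp in the table.

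Just inside and outside the lower edge of the Igfbp7 window, the log2 fold changes were 1.10 (peak_73991) and 0.08 (peak_73989), and at its upper edge they were -0.74 (peak_74013) and -0.24 (peak_74017). At Aqp1 they were -1.68 (peak_82215) inside and -1.18 (peak_82196) outside the lower edge, and -2.54 (peak_82222) and -0.40 (peak_82240) at the upper edge. Within 500 kb of the lead region, outside the windows, 3 of 24 regions were called lower and 0 higher around Igfbp7, with a median log2 fold change of -0.06. Around Aqp1, 3 of 17 were called lower and 1 higher, with a median of 0.05. The lowest value there was -3.42 ± 0.44 (SE) at peak_82167, centred at -310 kb, near the -3.68 of the lead region. Of all 39952 regions tested, 8.98% were called lower and 4491 regions higher, and nothing is read from the counts around the windows.

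**Figure D3:**
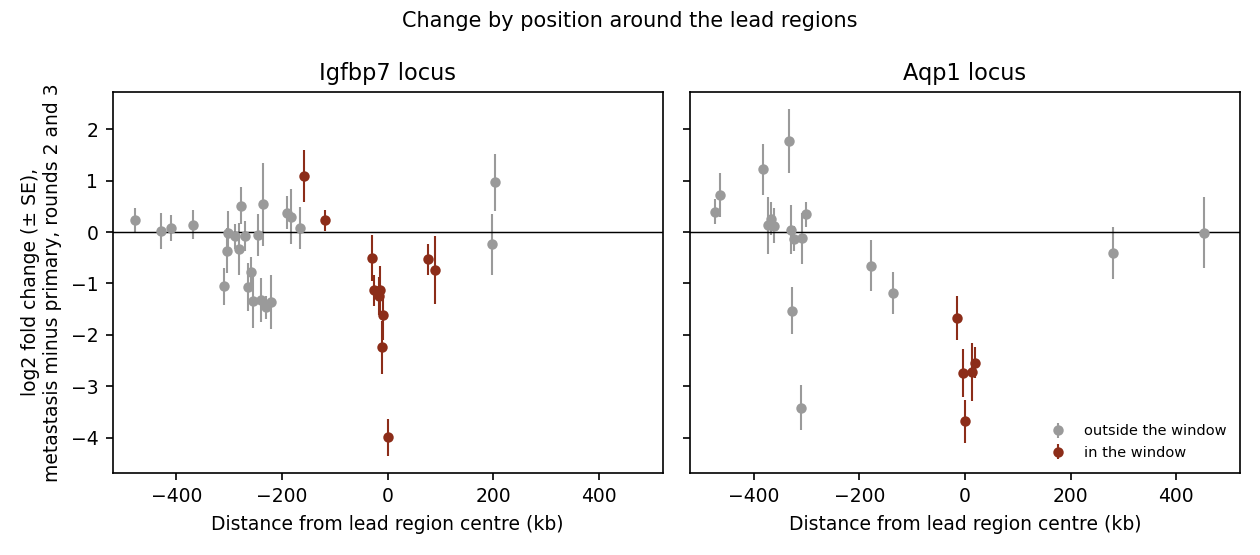
The log2 fold change of metastasis minus primary lines in rounds 2 and 3 (vertical, bars ± SE) against the distance of each region from the centre of the lead region in kb (horizontal), for regions inside (red) and outside (grey) each window. At Igfbp7 the value falls to -4.00 at the lead region among weaker neighbours, and at Aqp1 all 5 members lie between -1.68 and -3.68.

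Summed over its regions, the Igfbp7 locus held 185.6 ± 18.8 CPM in Primary2, 203.0 ± 33.0 in Primary3, 140.2 ± 26.0 in Met1, 119.7 ± 44.6 in Met2 and 80.9 ± 9.33 in Met3 (SD, n = 3 each). The log2 ratio of later metastasis to primary means was -0.95, and it was -0.53 when the lead region was left out. Met2 replicate 1, at 166.0 CPM, lay within the range of the primary lines (165.7 to 228.0). The median deviation of its chromosome 5 regions from their means over the lines, less the same median over all chromosomes, was also the highest of the 15 lines (0.62 on the log2 scale, others -0.28 to 0.31), and its part in the result was not tested. Relative to each line's median on the chromosome, the log2 ratio of the locus was -1.26.

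The Aqp1 locus held 137.1 ± 82.9 CPM in Primary2, 201.7 ± 21.6 in Primary3, 45.5 ± 32.2 in Met1, 23.6 ± 3.62 in Met2 and 22.1 ± 4.64 in Met3 (SD, n = 3 each). Its log2 ratio was -2.89, and -2.53 without the lead region. The 6 later metastasis lines were close together, at 19.4 to 27.5 CPM, whereas the Primary2 lines were at 103.1, 76.6 and 231.5. Primary2 replicates 1 and 2 were lower than replicate 3 at each of the 5 regions.

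**Figure D4:**
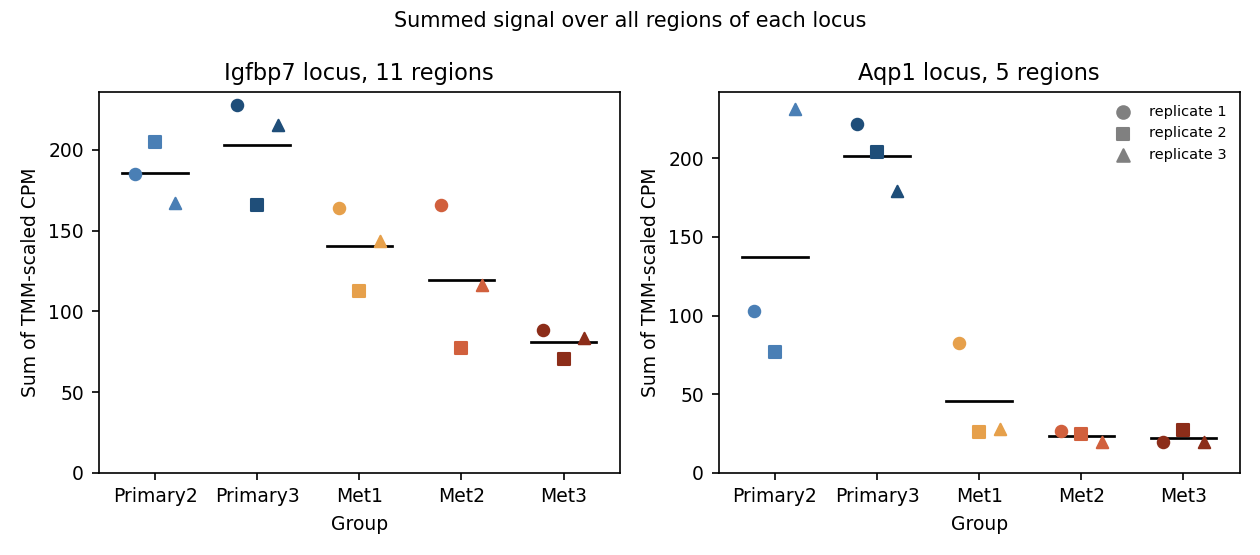
Summed TMM-scaled CPM over the 11 Igfbp7 regions and the 5 Aqp1 regions (linear axes from 0) by group, with 1 point per line and a bar for the group mean. At Aqp1 the 6 lines of Met2 and Met3 lie between 19.4 and 27.5 CPM, below all primary lines, and at Igfbp7 Met2 replicate 1 lies among the primary lines.

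The Met1 lines had no part in selecting the loci, but they can be compared only with lines that did, so their differences are also a description, with no p given; counts of calls stand beside the share of all regions called, and nothing is read from them. The Met1 mean lay between those of the later metastasis and the primary lines in 8 of 11 Igfbp7 and 5 of 5 Aqp1 regions. At peak_74007 the log2 fold change was -1.17 ± 0.36 (SE) for Met1 minus primary lines and -2.82 ± 0.40 for later metastasis lines minus Met1. At peak_82217 these differences were -2.95 ± 0.53 and -0.73 ± 0.56. They are not steps in time, since Met1 differs from the primary lines in round as well as origin, which cannot be told apart. The larger difference was that of later metastasis lines from Met1 at peak_74007 and that of Met1 from primary lines at peak_82217. Whether the loci differ in this was not tested.

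Leaving out Met1 replicate 1, the shallowest Met1 line and the one with the flattest profile, moved the values at Aqp1. There it stood at 82.6 CPM over the locus against 25.7 and 28.0 in the other Met1 lines. Without it the same 2 differences at peak_82217 were -3.80 and 0.11, that is, the remaining Met1 lines were at the level of later metastasis lines. At peak_74007 they were -1.16 and -2.85. Against primary lines, Met1 was called lower at 3 of 16 regions (peak_74007, peak_82217 and peak_82222), where 4.94% of all regions were. Without the 2 shallowest libraries 5 members were called, beside 3687 of all regions in either direction (3784 with these libraries). Against Met1, later metastasis lines were called lower at 1 of 16 (peak_74007), where 3.82% of all were. The call of peak_74007 against primary lines was lost in 10 of 24 alternatives, among them leaving out any 1 of the Met1 lines (log2 fold changes of -1.16, -1.002 and -1.40).

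Comparisons between rounds within an origin, and of the metastasis effect between rounds, are not the contrast that selected the loci and were tested, but they use the same lines and are not fully independent of it. At the lead regions, chosen for low signal in Met2 and Met3, those groups held 25 and 15 reads at peak_74007 and 31 and 24 at peak_82217, so the values there are given with their intervals only. Between Met3 and Met2, edgeR called 0 of 16 members and 0% of all regions. At an unadjusted p under 0.05 there was 1 of 16 members, beside 7.32% of all regions, and DESeq2 called 0 members and 44 regions in all. At peak_74007 the log2 fold change was -0.89 (95% interval -2.17 to 0.38), and at peak_82217 it was -0.57 (-1.99 to 0.84). These intervals leave room for a lower or a somewhat higher signal in Met3 at both lead regions.

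The member under that unadjusted threshold was peak_74013 (chr5:77903009-77903449), a weak region. It had 25.9, 4.93 and 6.29 CPM in Met2 and 0.61, 0.76 and 0.65 in Met3, the latter from 1, 2 and 1 reads. Met3 minus Met2 gave -4.05 ± 0.99 on the log2 scale (SE; edgeR adjusted p = 0.373), and -2.93 without Met2 replicate 1. Primary3 lines also varied there, at 1.05, 19.1 and 4.13 CPM, from 3, 6 and 24 reads.

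Between Primary3 and Primary2, edgeR called 0 of 16 members and 0% of all regions, with 3 of 16 members (18.8%) at an unadjusted p under 0.05, beside 6.62% of all regions. DESeq2 called 0 members and 54 regions in all. The 3 were peak_73994 (log2 fold change 0.98 ± 0.30 SE, edgeR adjusted p = 0.452), peak_74012 (0.93 ± 0.43, 0.736) and peak_82216 (1.28 ± 0.59, 0.738). At peak_73994 the Primary2 lines stood at 22.0, 20.8 and 20.2 CPM and the Primary3 lines at 50.0, 44.6 and 31.5, with no overlap. The share of all regions without overlap between these groups was not counted, so nothing is read from this. At peak_74007 the value was -0.02 (95% interval -0.83 to 0.79), with a sign that changed among the alternatives, and at peak_82217 it was 0.68 (-0.34 to 1.69).

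The difference of the metastasis effect between rounds 3 and 2 was called by edgeR at 0 of 16 members and 0% of all regions, with 3 of 16 members (18.8%) at an unadjusted p under 0.05, beside 6.43% of all regions. DESeq2 called 0 members and 15 regions in all. The difference was -0.88 (95% interval -2.38 to 0.63) at peak_74007 and -1.25 (-2.996 to 0.49) at peak_82217. The 3 members were peak_73994 (-1.16), peak_74012 (-1.76) and peak_74013 (-4.04), with edgeR adjusted p between 0.660 and 0.686. The value at peak_74013 was -2.91 without Met2 replicate 1 and -3.21 without Primary3 replicate 2.

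**Figure D5:**
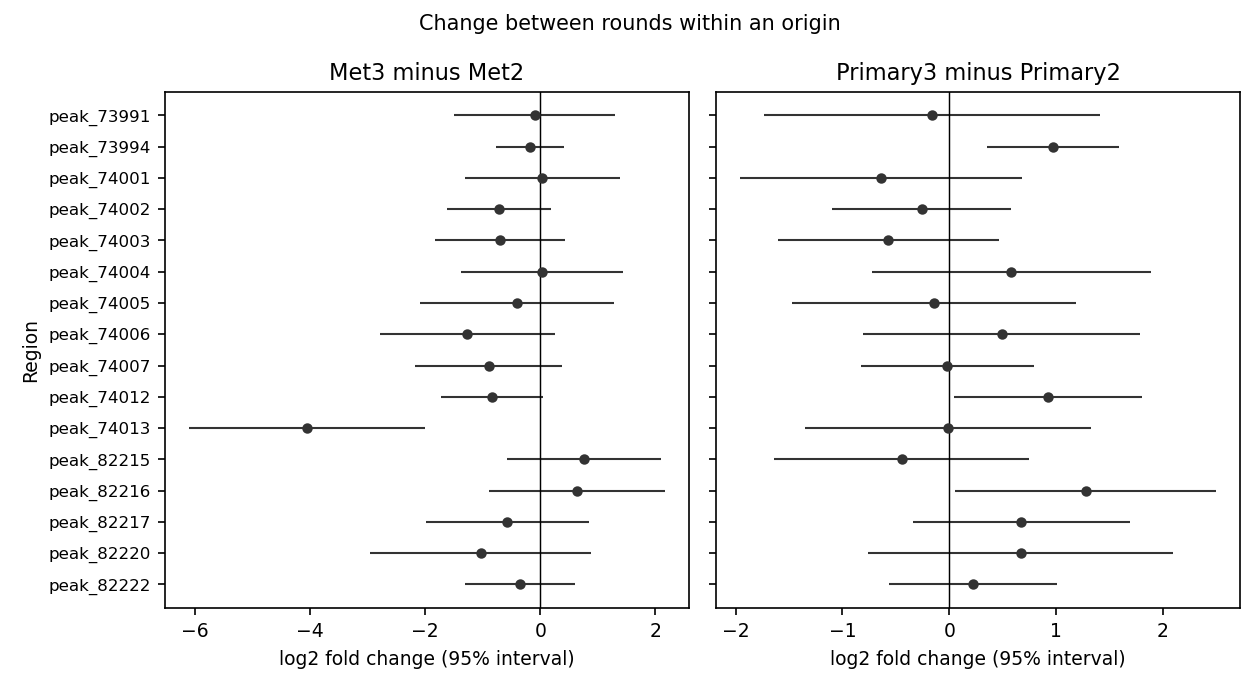
Log2 fold changes of the 16 regions (vertical) between Met3 and Met2 and between Primary3 and Primary2 (horizontal, points with 95% intervals from the edgeR fit; the 2 axes have different ranges). None passed the adjusted threshold, and peak_74013 at -4.05 between metastasis rounds lies farthest from 0.

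Regions elsewhere in the table with the pattern most like each lead region were ranked by Pearson's r of log2 CPM over the 15 libraries. This r includes the difference between groups on which the loci were selected, and the points share scaling and depth. The Met1 lines are among the 15 libraries, so a Met1 level placed as at the lead region follows in part from the ranking. For peak_74007 they were peak_91368 (chr7:107296595-107298854, r = 0.948), peak_30825 (chr15:25325728-25327477, 0.942) and peak_10569 (chr11:5196385-5197962, 0.941). At peak_30825, primary lines held 36.1 ± 7.18 CPM, later metastasis lines 4.58 ± 3.09 (SD, n = 6 each) and the Met1 lines a mean of 21.1, between the others as at peak_74007. The corresponding levels at peak_91368 were 45.5 ± 15.3, 13.8 ± 2.92 and 22.7 CPM. The Met1 mean at peak_10569 was 56.8 CPM, near its primary level of 64.3 ± 14.9 and above its later metastasis level of 21.2 ± 7.18.

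For peak_82217 the most similar regions were peak_89804 (chr7:71209490-71210326, r = 0.955), peak_3949 (chr1:135846529-135847440, 0.936) and peak_60337 (chr3:59007669-59008827, 0.935). At peak_89804 primary lines held 43.4 ± 9.95 CPM, later metastasis lines 5.33 ± 2.15 (SD, n = 6 each) and the Met1 lines a mean of 11.02. At peak_60337 the corresponding levels were 48.4 ± 9.37 and 10.1 ± 3.51, and at peak_3949 they were 23.98 ± 9.88 and 4.72 ± 2.08.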

How the data were processed

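ATAC-seq libraries of 15 organoid lines were analysed from 1 deposited table of whole-number counts per region, which the authors counted over regions whose names, per the file headers and row names, carry the words ALL_samples. Tools named, per the submitters' processing notes, were MACS2, Bowtie, bedtools, SAMtools and Picard, and the build was mm9; neither roles nor versions are stated there. Not given in the sources used here are a shift of reads for the transposase, removal of duplicates and exclusion of mitochondrial reads, each of which can change counts. Each region's score is also deposited by the authors, in its name.

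Groups and replicate numbers came from the titles. The filter (filterByExpr, at least 10 counts, 15 in total) left 39952 of 43020 regions. A quasi-likelihood model with 5 group means (edgeR 4.0.16, limma 3.58.1, R 4.3.3, TMM) was fitted to all libraries, with calls made below 0.05 after Benjamini-Hochberg adjustment over every region tested. The size of the fold change divided by the root of F gave its standard error, and its 95% interval used the fit's degrees of freedom. The log2 CPM used a prior count of 2. The fit was also run on counts simulated from its own estimates of spread, with independent lines. Changes were planted only in regions at or above the median level. That run is a check of the code and does not bear on shared ancestry or on weak regions. Scripts used Python 3.11.15, pandas 2.3.3 and matplotlib 3.10.9.

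Named per locus were the lead region, the 3 other regions with the highest mean CPM, the 2 lowest and 2 highest log2 fold changes, the edges of the windows and the 3 regions most like each lead region. The members, lists and rules were chosen with earlier results of these data known. Gene positions in mm9 were not used here, so lists of insulin-like growth factor, aquaporin and cell type marker genes were not counted and the labelled cell type was not checked. Peak numbers within the Igfbp7 and Aqp1 members run over 23 and 8 values, of which 12 and 3 are not analysed here.

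Alternatives were DESeq2 1.42.0, scaling by total counts, no filter, a stricter filter (30 counts in 3 libraries), a replicate block, fits restricted to the compared groups, removal of chromosome medians or of a lowess trend (span 0.3), and leaving out each replicate. Same-numbered lines of different groups correlated at -0.21 to 0.16 in their deviations from group means, with 2 of 30 pairs over 0.1. Lines of different numbers were not set beside these, so the values cannot decide whether equal numbers mark pairs. Replicate numbers were not treated as pairs.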

Additional observations from a re-analysis of the deposited data

How the results depend on the processing

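Leaving out the 2 shallowest libraries was chosen after seeing the data. Of 226 alternative values for the counts of called members and the locus levels, 210 stayed within 1.5 times the count or 1 SD of the level. These include the comparisons between rounds, where 0 members were called in every setting. The SD is that among single lines, while the level is a ratio of means over lines, which leaving out a line moves little. The number 210 is therefore not a measure of robustness. With the replicate block, 10 members were called in rounds 2 and 3 together, as without it, 4 in round 2 (5 without), 6 in round 3 (9 without) and 2 for Met1 against primary (3 without). Over all regions, in either direction, the calls with the block were 7273 (8080 without), 1948 (2480), 3306 (4059) and 3123 (3784) in that order. The replicate number is only a shared number here.

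For Met1 against primary the count was 5, in place of 3, with DESeq2, with chromosome medians removed, with the trend on mean signal removed, with the 2 shallowest libraries left out and in a fit of only the groups compared. Over all regions, in either direction, these settings called 4632, 3518, 3868, 3687 and 4574 in that order, against 3784 in the main fit. When a replicate was left out, the count of members ran from 1 (Met1 replicate 2) to 5 (Met2 replicates 1 and 3). Calls over all regions were then 1162 without Met1 replicate 2, and 5236 and 4198 without Met2 replicates 1 and 3. In round 2 the count of members ran from 3 (Met2 replicate 2, Primary2 replicate 3) to 6 (Met2 replicate 1). Calls over all regions were then 2031, 1166 and 2810, against 2480 in the main fit. In round 3 the count ran from 5 (Met3 replicates 1 and 2, Primary3 replicates 1 and 3) to 9. Where it was 5, calls over all regions were 1831, 2644, 1483 and 1950, against 4059 in the main fit. Nothing about the members alone is read from these counts. The log2 ratio of the Igfbp7 level was -0.53 without the lead region (-0.95 with it), and that of the Aqp1 level was -2.39 as a median over regions (-2.89 as a sum). The cause was not tested, apart from the regions and libraries that these settings leave out.

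In rounds 2 and 3 together, peak_74003 lost its call in 3 alternatives and peak_74006 in 2, each with 1 library left out, and peak_74004 gained one with chromosome medians removed. Over 24 alternatives the log2 fold change ran from -4.24 to -3.83 at peak_74007 and from -3.93 to -3.36 at peak_82217. Depth limits Primary3 replicate 2, whose members held 0 to 26 reads.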
